A study of Mus musculus with 4 samples.

Results

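The 10 genes described here mark resting, surveying microglia and were followed across the cells of the mouse cortex. They were *P2ry12*, *P2ry13*, *P2ry6*, *Gpr34*, *Cx3cr1*, *Csf1r*, *Siglech*, *Selplg*, *Tmem119* and *Sall1*, chosen by name, and all 10 were found among the 27487 genes of the deposited tables. Single cells were profiled with Drop-seq, a droplet method that counts messenger RNA molecules from their 3′ ends with unique molecular identifiers (UMIs). Each of the 4 libraries pooled the cortex of 9 mice aged 24 weeks: female wild-type, female Tg2576, male wild-type and male Tg2576. Tg2576 mice (B6;SJL-Tg(APPSWE)2576Kha) were heterozygous for a transgene that carries human amyloid precursor protein with the Swedish mutation behind the hamster prion protein promoter. The wild-type mice were their littermates on the same mixed strain background, and every group was perfused and dissociated alike. The comparison asks whether the 2 genotypes and the 2 sexes differ in these genes.

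Because each sex and genotype is 1 pooled library, a Tg2576 over wild-type ratio within a sex has no replicate. Such ratios are given with a 95% counting interval, which covers sampling of molecules and not differences between mice, nor any effect of the droplets or the PCR. Only an effect shared by both sexes could be tested over libraries, with edgeR on UMIs summed per library. That fit has 1 residual degree of freedom, and whether the sexes differ in their genotype effect could not be tested.

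Microglia are the resident phagocytes of the brain, and in healthy tissue they carry a set of receptors by which they sense their surroundings. *P2ry12*, *P2ry13* and *P2ry6* encode receptors for extracellular nucleotides, *Gpr34* a receptor for lysophosphatidylserine, and *Cx3cr1* the receptor for the neuronal chemokine fractalkine. *Csf1r* encodes the receptor tyrosine kinase on which microglial survival depends. *Siglech* encodes a sialic acid-binding lectin that signals through the adaptor encoded by *Tyrobp*, and *Selplg* the selectin ligand PSGL-1. *Tmem119* encodes a transmembrane protein used to tell microglia from other macrophages, and *Sall1* a zinc finger transcription factor of microglial identity. Several of these genes are known to fall when microglia are activated by disease or by handling.

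Promoter sequences from RefSeq (GRCm38.p6, the assembly that mm10 in the submitters' notes names) were at hand for 5 of the 10 genes. The windows of *P2ry12* and *P2ry13*, neighbouring receptor genes, and of *Siglech*, which differed most between libraries, are shown because each held a motif match. Each runs from 250 bases before to 50 bases after a start site, 5′ to 3′ on the gene's strand, and capitals mark the 1 match to GAGGAA or AGGAAGT, purine-rich letters of the kind bound by PU.1, the myeloid ETS factor.
P2ry12 (chr3:59262936-59263235, - strand): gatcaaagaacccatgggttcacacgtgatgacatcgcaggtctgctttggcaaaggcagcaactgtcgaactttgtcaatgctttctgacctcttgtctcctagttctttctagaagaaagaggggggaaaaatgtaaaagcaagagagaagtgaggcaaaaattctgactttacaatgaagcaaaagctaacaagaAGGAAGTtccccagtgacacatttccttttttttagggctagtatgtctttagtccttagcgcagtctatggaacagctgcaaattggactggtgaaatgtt
P2ry13 (chr3:59210833-59211132, - strand): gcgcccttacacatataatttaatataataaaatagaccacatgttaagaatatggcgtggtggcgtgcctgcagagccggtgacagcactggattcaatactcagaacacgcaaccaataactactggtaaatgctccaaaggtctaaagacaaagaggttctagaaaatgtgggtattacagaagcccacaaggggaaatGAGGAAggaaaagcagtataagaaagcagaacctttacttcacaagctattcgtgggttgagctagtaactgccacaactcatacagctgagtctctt
Siglech (chr7:55767934-55768233, + strand): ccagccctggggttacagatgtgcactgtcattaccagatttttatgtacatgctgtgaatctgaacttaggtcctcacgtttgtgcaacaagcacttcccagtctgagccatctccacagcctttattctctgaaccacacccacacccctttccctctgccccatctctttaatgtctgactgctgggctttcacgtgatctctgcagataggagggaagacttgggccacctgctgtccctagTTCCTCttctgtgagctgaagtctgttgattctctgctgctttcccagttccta
In *P2ry12* the match was AGGAAGT, starting 52 bases before the start site. In *P2ry13* it was GAGGAA, 48 bases before the start site, and in *Siglech* it was the reverse complement TTCCTC, 4 bases before it. Both strands were searched, and the pair share most of their letters, so matches can overlap. The shorter motif was in 28.3% and the longer in 9.35% of all windows, and 32.7% of the 32851 promoter windows of the same length held at least 1 of the 2 motifs, so a match is a description and not a site. *Cx3cr1* held no match, and 1 of the 3 *Sall1* windows held 1. *P2ry12* (chr3:59216271-59262985) and *P2ry13* (chr3:59207892-59210882) both lie inside the span of *Med12l*. *Med12l* itself was counted at 116 to 187 CPM (UMIs of a gene per 1000000 UMIs of the same cells) in microglia against 34.7 to 41.5 in astrocytes, and reads shared with the 2 receptor genes cannot be told apart here. *Tmem119* (chr5:113793729-113800396) and *Selplg* (chr5:113817798-113832528) are close neighbours on 1 chromosome.

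The tables held 3000 barcodes per library, of which 1010 to 1532 per library and 4835 in all passed the cell filters. The kept cells carried 1593675 to 1758582 UMIs per library, with medians of 909 to 1331.5 UMIs per cell, lower in both Tg2576 libraries than in the wild-type library of the same sex. Mitochondrial transcripts made up 5.00% to 9.92% of kept UMIs, and kept libraries shared 2 to 4 cell barcodes pairwise. *Xist* stood at 1034 and 924 CPM in the female libraries and at 0 and 1.7 in the male ones, which matched the labels. *App* was counted at 1575 and 1567 CPM in the female and male Tg2576 libraries, against 889 and 1178 in wild-type.

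A pair of clusters, with 1860 cells, carried all 12 microglial marker genes of a list that holds none of the 10 genes. They held 460 female wild-type, 513 female Tg2576, 350 male wild-type and 537 male Tg2576 cells, with 538251 to 671370 UMIs per library. Levels are given in CPM, and since 1 molecule gives 1 tag at its 3′ end, they can be compared between genes without a length correction. The microglial list summed to 26047 to 33512 CPM by library, and each list for another cell type to 810 or less. The choroid plexus list ran from 212 in female Tg2576 to 810 in male wild-type, the astrocyte list from 435 to 658, with female wild-type highest, the oligodendrocyte list from 412 to 548 and the neuroblast list from 321 to 380. Of the macrophage markers, 3 of 9 had UMIs in each library, *Pf4*, *Lyve1*, *Cbr2* and *Folr2* were at 0 in all 4, and the list summed to 102 to 167. Neutrophil markers were at 0 in 3 libraries and summed to 182 in male Tg2576 microglia. The part of these lists in the results was not tested.

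Each of the 10 genes was detected in microglia of every library. *Cx3cr1* was the most abundant, at 4598, 4808, 4804 and 4444 CPM in female wild-type, female Tg2576, male wild-type and male Tg2576 microglia. These values spanned 1.08-fold and had the smallest spread of the set, with a mean of 4664 ± 176 (SD, n = 4 libraries). *P2ry12* came next with 2617, 3357, 3183 and 3776 in the same order, a mean of 3233 ± 480 (SD, n = 4). Both Tg2576 libraries were above both wild-type ones, and the female wild-type library was lowest. *Csf1r* stood at 1765, 1932, 2229 and 2493, with both male libraries above both female ones.

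*Siglech* (chr7:55768154-55779448) was the most variable of the 10, at 1588, 1827, 1113 and 2101 CPM. The male wild-type library was the low one, and the male Tg2576 library the high one, 1.89-fold apart. *Selplg* measured 1160, 1327, 1343 and 1331, with the female wild-type library lowest. *Gpr34* measured 1083, 1249, 1306 and 1458. The ranges of *Csf1r* and *Siglech*, of *Siglech* and *Selplg* and of *Selplg* and *Gpr34* overlapped, so their order is not fixed by these libraries.

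Lower in the order, *Tmem119* measured 670, 718, 706 and 882 CPM and *P2ry13* 466, 471, 489 and 630. In both genes the male Tg2576 library was highest. *Sall1*, the transcription factor, was counted at 276, 288, 251 and 230, and *P2ry6* at 98.3, 91.4, 94.8 and 73.5. *P2ry6* rested on only 44 to 66 UMIs per library. The ranges of these 4 genes did not overlap with those of the neighbours below or above them.

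**Figure D1:**
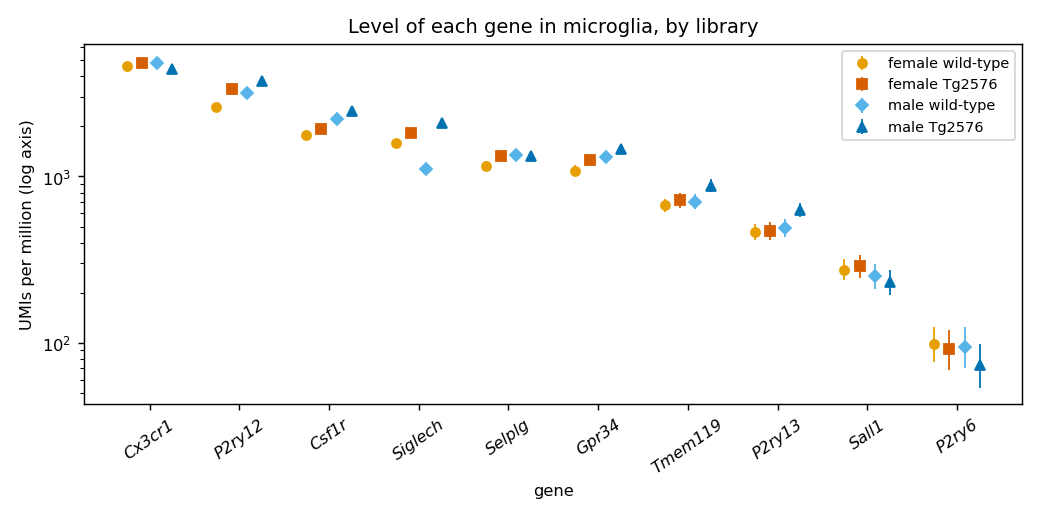
Level of each of the 10 genes in microglia in CPM (log axis), 1 point per library (4 libraries, 9 mice pooled in each) with 95% counting intervals as bars; genes are ordered by their mean. *Cx3cr1* values sit between 4444 and 4808, whereas *Siglech* ranges from 1113 in male wild-type to 2101 in male Tg2576 microglia.

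When each cell was thinned to 500 UMIs, leaving out 21 to 70 shallower cells per library, a microglial cell held UMIs of 4.20, 4.42, 4.37 and 4.80 of the 10 genes on average in female wild-type, female Tg2576, male wild-type and male Tg2576 libraries. The same count was 0.10 to 0.16 in astrocytes. At this depth *Cx3cr1* was seen in 85.4% to 88.7% of microglia and *P2ry12* in 69.2% to 82.5%. Without thinning, at the median of 1030 to 1410 UMIs per cell, these shares were 95.2% to 97.2% and 89.6% to 93.1%. *P2ry6* was seen in 3.59% to 5.79% of thinned microglia. *Siglech* was seen in 41.5% of male wild-type microglia (95% exact binomial interval 36.1 to 47.0) and in 61.6% of male Tg2576 microglia (57.1 to 66.0), and the female wild-type and Tg2576 shares were 55.1% and 56.7%.

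In the test of genotype across both sexes, no member of the set passed an adjusted p of 0.05 (edgeR quasi-likelihood test with sex as covariate, Benjamini-Hochberg over all genes). This is 0 of 10 genes, against 11 of the 7504 genes tested (0.147%), 1 of them higher (0.0133%) and 10 lower (0.133%) in Tg2576. The count is not a stable one, since DESeq2 called 0 genes and had 38 at an unadjusted p under 0.05. *Siglech* came closest, with a log2 fold change of 0.50 (SE 0.16, unadjusted p = 0.0035, adjusted p = 0.267 by edgeR). Its Tg2576 libraries were both above both wild-type ones. It passed with library totals in place of TMM scaling (adjusted p = 0.0284) and without the filter on low counts (adjusted p = 0.0419), and over all edgeR and DESeq2 alternatives its adjusted p ran from 0.0284 to 0.9996. The male wild-type library carried much of it: without that library the log2 fold change was 0.23 (adjusted p = 0.9994 by edgeR). Among the other 9 genes the log2 fold changes ran from -0.28 for *P2ry6* to 0.25 for *P2ry12*, with a lowest adjusted p of 0.693 by edgeR.

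Within the sexes, *P2ry12* was higher in Tg2576 microglia of both, by 0.36 (95% counting interval 0.27 to 0.45) on the log2 scale in females and by 0.25 (0.16 to 0.34) in males. In each sex 15 tested genes had at least as many UMIs, *P2ry12* included, and its ratio was the highest among them. *Siglech* was higher by 0.20 (0.08 to 0.33) in females and by 0.92 (0.78 to 1.06) in males, and the 2 intervals did not overlap. In males 41 genes had at least as many UMIs, *Siglech* included, and none had a higher ratio. *Gpr34* was higher by 0.21 (0.06 to 0.36) and 0.16 (0.01 to 0.30), and *Csf1r* by 0.13 (0.01 to 0.25) and 0.16 (0.05 to 0.27), in females and males respectively.

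The remaining receptors were less alike between the sexes. *P2ry13* gave 0.01 (-0.22 to 0.25) in females and 0.37 (0.13 to 0.60) in males, and *Tmem119* 0.10 (-0.10 to 0.29) and 0.32 (0.13 to 0.51). *Selplg* gave 0.19 (0.05 to 0.34) in females and -0.01 (-0.16 to 0.13) in males. *Cx3cr1*, with the narrowest intervals, gave 0.06 (-0.01 to 0.14) in females and -0.11 (-0.19 to -0.03) in males. Neither sex gave *P2ry6* or *Sall1* an interval clear of 0, and at this depth a decrease of up to 0.98 for *P2ry6* or 0.47 for *Sall1* on the log2 scale lay within the male intervals.

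In females the interval lay above 0 for 5 of the 10 genes and below 0 for none, against 6.12% and 5.45% of the 7504 genes tested. In males it lay above 0 for 6 and below 0 for 1, against 5.86% and 5.34% of genes tested. These shares rise with UMI count: among genes with at least as many UMIs as *Siglech*, itself included, 27.0% in females and 53.7% in males had an interval above 0. The median log2 ratio over the 10 genes was 0.11 in females and 0.16 in males, beside 0.05 and 0.03 over all genes tested. Among genes with at least as many UMIs as *Gpr34*, the median was -0.03 in females and 0.11 in males, nearer to the male value of the set. In males 22 of those 52 genes, *Gpr34* included, had a higher ratio than *Gpr34*, and 9 of 27 genes at least as abundant as *Csf1r* had a higher ratio than *Csf1r*. With TMM scaling the female median was 0.05. On library totals, 4 genes, *P2ry12*, *Siglech*, *Gpr34* and *Csf1r*, had intervals above 0 in both sexes. The share was 0.826% over all genes tested, not matched for UMI count. The TMM factor was 1.018 for Tg2576 against 0.970 for wild-type in females, and 1.018 against 0.995 in males. Scaling by these factors lowers every ratio, and the female intervals of *Gpr34*, *Csf1r* and *Selplg* then include 0. So does the male interval of *Gpr34*. Only *P2ry12* and, narrowly in females, *Siglech* then stay above 0 in both sexes.

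**Figure D2:**
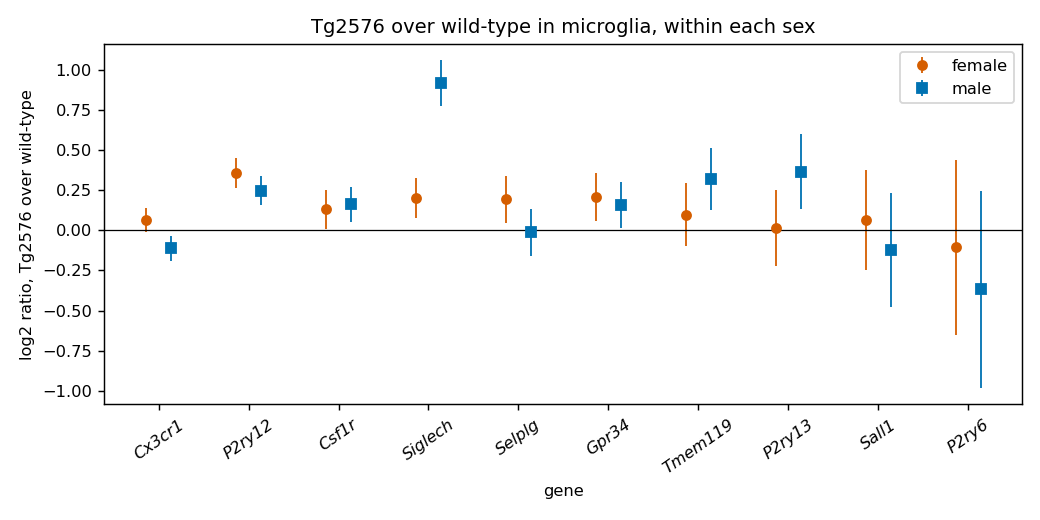
Log2 ratio of Tg2576 over wild-type CPM in microglia for each gene, in females and in males, 1 library per genotype and sex; bars are 95% counting intervals. *Siglech* in males, at 0.92, stands above the other 19 values, which lie between -0.37 and 0.37.

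Cluster make-up differed between the libraries, most in females, and was set beside these ratios. The 2 microglial clusters differed in a list made of the cytokine genes *Ccl3*, *Ccl4*, *Il1a*, *Il1b* and *Tnf* and of *Cd83*, which encodes no cytokine. They are called cytokine-high and cytokine-low from the summed level of that list, named the cytokine list below. Cytokine-low cells were 41.5% of the microglia in female wild-type, 63.9% in female Tg2576, 29.1% in wild-type males and 34.6% in Tg2576 males. Most microglia were thus cytokine-high in 3 libraries and cytokine-low in female Tg2576. Within cytokine-high cells alone, the female median over the 10 genes was -0.04, and *Csf1r* and *Selplg* gave -0.09 (-0.27 to 0.09) and -0.01 (-0.24 to 0.22). The 10 genes summed to 12828 and 12774 CPM in female wild-type and Tg2576 cytokine-high cells, and to 17058 and 18438 in cytokine-low ones. In males the sums were 14242 and 15860 in cytokine-high and 20067 and 21681 in cytokine-low cells. *P2ry12* kept an interval above 0 within each cluster and sex, at 0.20 and 0.24 in females and 0.22 and 0.21 in males. *Siglech* gave 0.04 (-0.15 to 0.23) and 0.16 (-0.02 to 0.33) in female cytokine-high and cytokine-low cells, and 0.90 (0.74 to 1.08) and 0.86 (0.60 to 1.13) in male ones.

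The *Siglech* difference between the male libraries was also present outside the microglial clusters. In kept cells of other types, it was counted 19 times in male wild-type and 58 times in male Tg2576, or 17.1 and 50.01 CPM. Female wild-type and Tg2576 gave 34.7 and 48.0. Among barcodes with under 200 genes, which were not kept as cells, *Siglech* stood at 118 and 367 CPM in the male libraries and 258 and 287 in the female ones. Male wild-type was the lowest of the 4 libraries in each of these sets of barcodes. The sets come from the same 4 libraries, so they are not separate observations. Whether the counts outside microglia stem from microglial RNA was not tested. *Siglech* took 7.17% of the UMIs of the 10 genes in male wild-type microglia and 12.1% in male Tg2576 microglia, beside 11.1% and 11.4% in female wild-type and Tg2576. The male over female log2 ratio of *Siglech* was -0.51 (-0.66 to -0.37) in wild-type and 0.20 (0.08 to 0.32) in Tg2576 microglia.

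**Figure D3:**
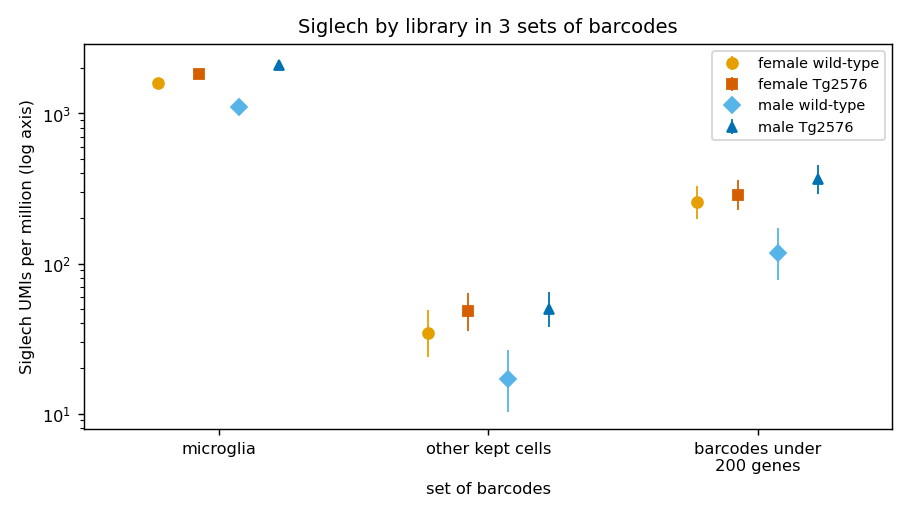
*Siglech* in CPM (log axis) in microglia, in kept cells of other types and in barcodes with under 200 genes, 1 point per library with 95% counting intervals as bars. The male wild-type library is lowest in each set, at 1113, 17.1 and 118.

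No member passed the test of sex, with 0 of 10 genes against 311 of 7504 (4.14%) that differed between male and female microglia, 149 higher (1.99%) and 162 lower (2.16%) in males (edgeR, genotype as covariate). *Csf1r* had the lowest p, with a log2 fold change of 0.34 for male over female (SE 0.15, unadjusted p = 0.0333, adjusted p = 0.217 by edgeR). Its male over female ratio was 0.34 (0.22 to 0.45) in wild-type and 0.37 (0.25 to 0.48) in Tg2576 microglia, and the fitted log2 fold change was positive under all alternatives run. *Gpr34* gave 0.27 (0.12 to 0.42) and 0.22 (0.08 to 0.37), and *P2ry12* 0.28 (0.19 to 0.38) and 0.17 (0.08 to 0.26), with adjusted p of 0.428 and 0.512 by edgeR.

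All 10 genes were lower in the cytokine-high than in the cytokine-low cluster in each of the 4 libraries. For comparison, 17.6% of the 4074 genes with at least 100 microglial UMIs were lower in all 4 libraries, a share not matched for UMI count. The clusters were drawn from the same cells, so this is a description without a test. Of the 10 genes, 9 had been left out of the genes used for clustering and *P2ry6* was not among those genes. Cytokine genes and other microglial genes were not left out, so the split can carry genes that vary with them. The median log2 ratio over the 10 genes was -0.37, -0.57, -0.52 and -0.41 in female wild-type, female Tg2576, male wild-type and male Tg2576 microglia. Over all genes with enough UMIs the median was -0.10. Cytokine-high cells were the deeper ones, with medians of 1165 to 1526 UMIs per cell against 780 to 1152, and with each cell thinned to 500 UMIs the median was -0.49. With cells of at least 500 genes it was -0.30.

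*P2ry12* had the most even ratio, at -0.59, -0.62, -0.62 and -0.60 on the log2 scale. It stood at 2224 to 3316 CPM in cytokine-high and 3337 to 5035 in cytokine-low microglia. *Cx3cr1* gave -0.39, -0.45, -0.45 and -0.37, and *Selplg* -0.50, -0.63, -0.54 and -0.54. *P2ry6* had the lowest median, -0.89, but on 108 and 106 UMIs in all, and it was among the 10 genes that led the cytokine-low cluster. *Siglech* gave -0.38, -0.49, -0.49 and -0.45, so the male wild-type library, low in its overall level, was not apart here.

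The transcription factor gene *Sall1* gave -0.09 (-0.53 to 0.36), -0.63 (-1.13 to -0.15), -0.21 (-0.78 to 0.41) and -0.11 (-0.66 to 0.47), and only the female Tg2576 interval excluded 0. *Csf1r* gave the next smallest median ratio, -0.36. The immediate-early genes *Fos* and *Jun*, which respond early to stimulation or to tissue dissociation, had median log2 ratios of 2.49 and 1.20 in the same comparison.

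**Figure D4:**
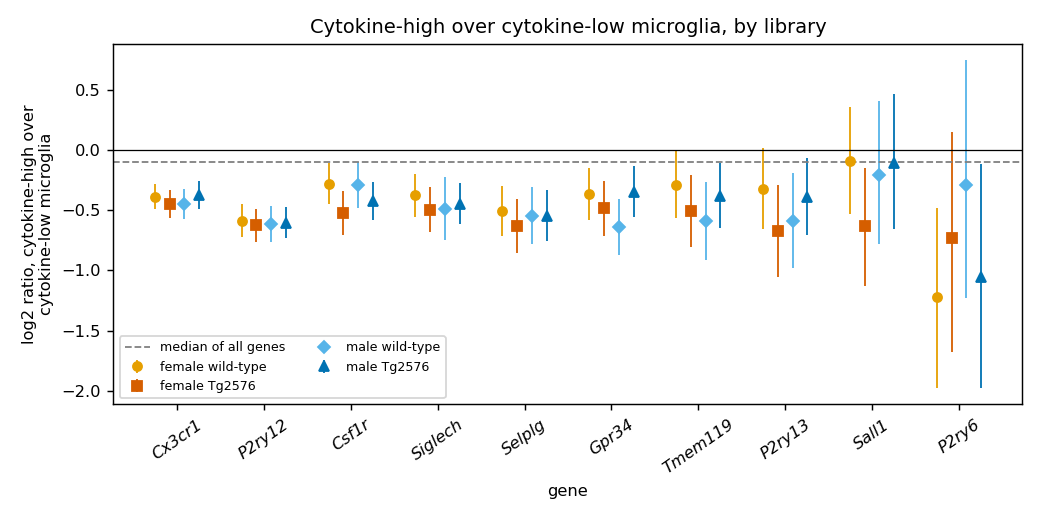
Log2 ratio of CPM in cytokine-high over cytokine-low microglia for each gene, 1 point per library with 95% counting intervals as bars; the dashed line is the median of all genes with at least 100 microglial UMIs, -0.10. All 40 points lie below 0, from -1.22 for *P2ry6* to -0.09 for *Sall1*, both in female wild-type microglia.

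Other genes of the same biology were read from lists named alongside the set. Of 14 further homeostatic genes, 11 were lower in the cytokine-high cluster in all 4 libraries, with a median log2 ratio of -0.43. The protease inhibitor gene *Cst3* gave -0.35. Of the transcription and TGF-β list, 11 of 12 genes had enough UMIs, of which 3 were lower and 3 higher in all 4 libraries, with a median of 0.03. *Mef2c* was at -0.02. *Tgfbr1*, which encodes a type I receptor for TGF-β, was at -0.26, while *Cebpa* and *Cebpb*, of the 3 higher genes, were at 0.84 and 1.17. In the genotype test none of the 14 homeostatic and none of the 12 transcription genes was called, with median log2 fold changes of 0.14 and -0.04.

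The ligands of the receptors had few UMIs. *Cx3cl1*, fractalkine, was counted at 170 CPM in neurons (19 UMIs), 34.8 in endothelial cells and 0.84 in microglia. *Il34*, a ligand of *Csf1r*, had 25 UMIs in mural cells (98.3 CPM, 50.2 to 176 by library) and 1 each in neurons, astrocytes and microglia. *Csf1*, its other ligand, stood at 182 CPM in cytokine-high microglia, from 123 to 251 by library, at 27.0 in cytokine-low microglia and at 89.3 in oligodendrocytes. In the genotype test *Csf1* gave a log2 fold change of -0.86 (SE 0.20, adjusted p = 0.0636 by edgeR, and under 0.05 in 5 of 14 alternatives) and *Tgfb1* -0.46 (SE 0.17, adjusted p = 0.371 by edgeR), so neither of the 2 ligands tested was called. *Selp*, the selectin bound by the *Selplg* product, had 1 UMI in endothelial cells.

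Of 5 nucleotide signalling genes and 7 signalling partners tested, none was called for genotype. *Entpd1*, the ectonucleotidase that degrades ATP and ADP, had 603 CPM in microglia and *Gnai2*, an inhibitory G protein subunit, 520.5. For sex, *Tyrobp*, the adaptor of the *Siglech* product, was higher in males by 0.59 on the log2 scale (SE 0.15, adjusted p = 0.0179 by edgeR, and under 0.05 in 7 of 14 alternatives), while *Inpp5d*, a phosphatase that restrains such signals, gave -0.34 (SE 0.16, adjusted p = 0.225 by edgeR).

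*Il1a*, an inflammatory cytokine gene, was lower in Tg2576 microglia, with a log2 fold change of -0.98 (SE 0.20, adjusted p = 0.0284 by edgeR). It was the only 1 of the 6 genes of the cytokine list called by edgeR. It was called in 7 of 14 alternatives. The call was lost with DESeq2 (adjusted p = 0.9996), with no mitochondrial limit, with at most 5% mitochondrial UMIs and without the covariate, and when female wild-type, female Tg2576 or male wild-type was left out (adjusted p = 0.999, 0.958 and 0.600 by edgeR), although the log2 fold change stayed below 0. For sex, *Tnf* and *Cd83* rose in males by 0.65 and 0.64 (adjusted p = 0.0468 and 0.0208 by edgeR), as did 5 of 12 immediate-early and stress genes, *Junb*, *Egr1*, *Dusp1*, *Ier2* and *Zfp36*, against 1.99% of all genes tested. *Hspa1b*, a heat shock gene, was lower in males (adjusted p = 0.00753 by edgeR). These sex calls depended on the settings. DESeq2 called none of the 6 genes of the cytokine list and 1 of the 12 immediate-early and stress genes, *Junb*. With no mitochondrial limit edgeR likewise called 0 and 1. Without female Tg2576 it called none of either list in either direction, without male wild-type 0 and 2, without male Tg2576 0 and 2, and without female wild-type 2 and 5. *Ier2* was called in 12 and *Junb* in 11 of 14 alternatives, *Tnf* and *Cd83* in 8. The summed level of the cytokine list was 3992, 2729, 4463 and 4449 CPM in female wild-type, female Tg2576, male wild-type and male Tg2576 microglia. Its part in the ratios of the 10 genes was not tested beyond the values within clusters. In the same order the sum was 5690, 5440, 5460 and 5772 in cytokine-high and 882, 780, 907 and 830 in cytokine-low microglia. *Il1a* had 818 UMIs in cytokine-high and 50 in cytokine-low cells. The part of cluster make-up in the *Il1a*, *Tnf* and *Cd83* calls was not tested.

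Outside microglia and macrophage-like cells, which are described last, the 10 genes were low. Between 86.3% and 98.5% of each gene's UMIs in kept cells lay in microglia of the same library. Summed over the 10 genes, microglia held 15792 CPM, against 5017 in the 28 macrophage-like cells (2231 to 6152 by library). An unnamed cluster of 52 cells held 887 and neuroblasts and progenitors 724 (159 UMIs, 367 to 1419 by library). Astrocytes and neurons both stood at 393, choroid plexus cells at 319, oligodendrocytes at 296, endothelial cells at 253, oligodendrocyte precursors at 231 and mural cells at 157. Barcodes with under 200 genes, which can hold RNA free in the suspension, stood at 1922. In those barcodes *Cx3cr1* took 29.2% of the summed UMIs of the 10 genes, against 29.5% in microglia, and *P2ry12* 18.8% against 20.4%. The mix was not the same throughout, since *Siglech* took 13.5% (95% exact binomial interval 12.0 to 15.1) against 10.6%, *Csf1r* 16.8% (15.2 to 18.6) against 13.3% and *P2ry13* 2.00% (1.41 to 2.74) against 3.25%.

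*Sall1* departed most from the microglial mix in astrocytes, where it took 9.68% of the summed UMIs of the 10 genes (43 of 444, 95% exact binomial interval 7.10 to 12.8). It took 7.81% in oligodendrocytes (15 of 192, 4.44 to 12.6) and 5.66% in neuroblasts and progenitors (9 of 159, 2.62 to 10.47, in 8 cells). In microglia it took 1.66%, in endothelial cells 1.83% (6 of 327) and in barcodes with under 200 genes 1.46% (27 of 1852). In barcodes with over 20% mitochondrial UMIs it took 4.47% (19 of 425, 2.71 to 6.89). The astrocyte share was 15.5%, 7.61%, 5.77% and 12.8% in female wild-type, female Tg2576, male wild-type and male Tg2576 libraries, each above the microglial share of the same library, which ran from 1.32% to 1.92%. As levels, *Sall1* stood at 34.7, 36.3, 30.1 and 49.7 CPM in astrocytes and 3.94, 7.16, 3.42 and 3.03 in endothelial cells. Its 43 astrocyte UMIs were spread over 34 of 921 cells, 3.69% of astrocytes at a median of 1032 UMIs per cell, against 0.520% of 962 endothelial cells at a median of 944.5. The oligodendrocyte UMIs came from 3 of the 4 libraries, with 0 in male wild-type, where a floor of 3 UMIs equals 18.7 CPM.

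**Figure D5:**
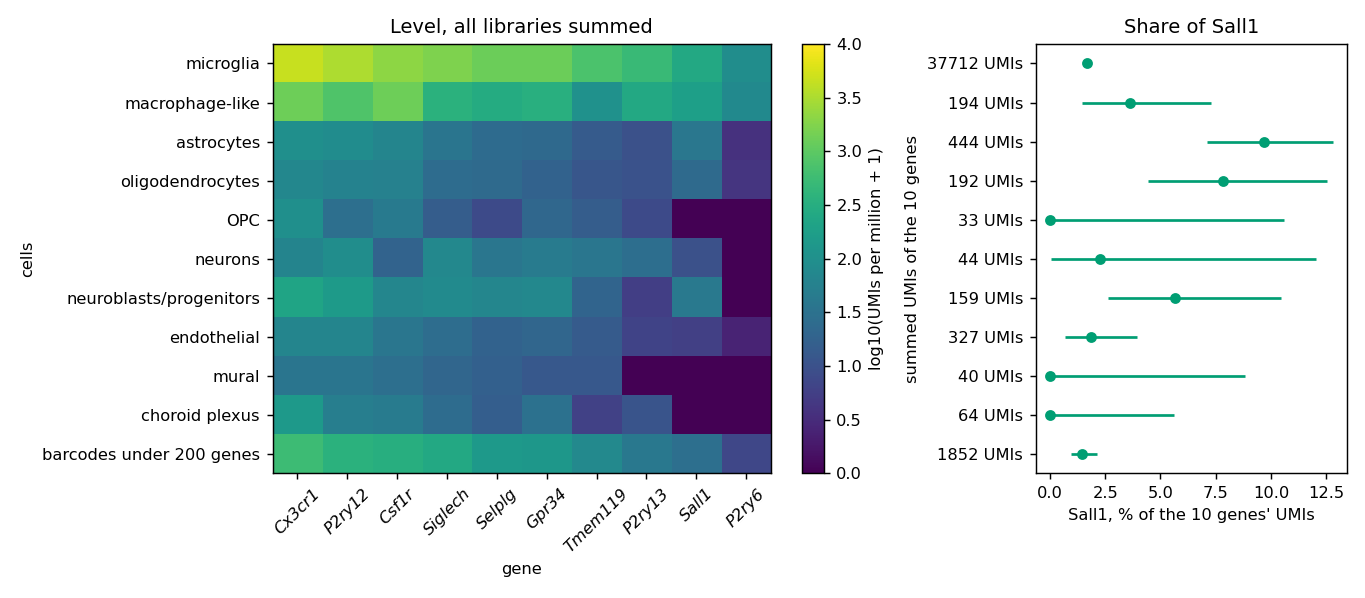
Left, level of each gene by cell type as log10(CPM + 1), 4 libraries summed. Right, *Sall1* as a percentage of the summed UMIs of the 10 genes in the same cells with 95% exact binomial intervals, the number of those UMIs on the axis; astrocytes stand at 9.68% and microglia at 1.66%.

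Macrophages were too few to compare by genotype. The macrophage cluster held 104 cells but also ependymal and neutrophil genes among its leading genes, so macrophage-like cells were taken as the 28 cells in which the UMIs of the macrophage list outnumbered those of each of 8 other lists. The microglial list was not among the 8, so a cell with more microglial than macrophage UMIs could be taken as macrophage-like. In 3 more cells the macrophage list tied with another list, and these were left out. The 28 cells were 6, 10, 7 and 5 by library and held 38668 UMIs. The edgeR genotype test covered 107 genes and 3 members, *P2ry12*, *Cx3cr1* and *Csf1r*. None was called (0 of 3, against 0% of 107 genes tested, with 6 at an unadjusted p under 0.05 and 0 called by DESeq2).

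Summed over libraries, 8 of the 10 genes were higher in microglia than in macrophage-like cells, with counting intervals of the fold above 1, against 3.48% of genes tested. None was lower in this way, against 3.84%. These shares were not matched for UMI count, on which it depends whether an interval can exclude 1. The intervals also treat UMIs as independent, although 128 of the 194 UMIs of the 10 genes in macrophage-like cells came from 3 cells. *Tmem119* differed most, 7.18-fold (95% counting interval 2.80 to 26.4), on 4 UMIs in macrophage-like cells. *Siglech* was 4.61-fold (2.74 to 8.43) and *P2ry12* 4.01-fold (2.82 to 5.91) higher. *Csf1r*, the receptor shared by all macrophages, was 1.62-fold higher (1.23 to 2.18). *P2ry6* and *Sall1* gave 1.16-fold (0.39 to 5.65) and 1.45-fold (0.70 to 3.61) on 3 and 7 UMIs, the 7 all from female wild-type.

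*Csf1r* was found in 20 of 28 macrophage-like cells (71.4%, 95% exact binomial interval 51.3 to 86.8), whereas *P2ry12* was in 7, *Siglech* in 5 and *Tmem119* in 2. *Csf1r* took 25.8% of the summed UMIs of the 10 genes in these cells against 13.3% in microglia. Of the 194 summed UMIs, 128 came from the 3 cells with the most, 1 of which held 71, and Scrublet called none of the 28 cells a doublet. At 500 UMIs per cell, which 17 of the 28 cells reached, the median log2 ratio of microglia over macrophage-like cells was 0.16. Without thinning this median over the 10 genes was 1.36, and with all 104 cells of the cluster it was 2.93. A gene with 0 UMIs in macrophage-like cells of a library was entered at a floor of 3 UMIs, so its ratio is a lower bound. *P2ry12* and *Cx3cr1* in male Tg2576 were among such cases without thinning, as was *Sall1* in every library but female wild-type. *P2ry6*, with 3 UMIs over 4 libraries, and *Tmem119*, found in 2 cells, were also at 0 in some libraries. With fewer UMIs the floor is higher in CPM, so the value of 0.16 cannot be read as a smaller difference.

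The genes whose pattern over cell types was most like that of the set were *C1qc*, *Ctss*, *C1qb* and *Laptm5*. Pearson's r to the summed set was 0.94, 0.91, 0.90 and 0.90, over 41 cell type and library profiles with at least 10000 UMIs, on log2(CPM + 10), among 5977 genes. *C1qb* and *C1qc* encode chains of complement C1q and *Ctss* the lysosomal protease cathepsin S. The profiles share libraries and the summed set is led by *Cx3cr1* and *P2ry12*, so these values describe the likeness and carry no test.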

How the data were processed

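Drop-seq UMI counts per gene and barcode were deposited by the authors as 4 tables, 1 per library, raw and with no normalization. The submitters' processing notes name mm10 and Seurat 3.1.4, while the aligner, the gene annotation and the strand setting are not given in the sources used here. Cells with 200 to 7000 genes and at most 20% mitochondrial UMIs were kept. They were normalised with sctransform and clustered (2500 variable genes, of which 2483 were used, 19 principal components, resolution 0.5), with 9 of the 10 genes, mitochondrial genes, *Malat1*, *App*, *Prnp* and sex-linked genes left out of the variable genes. Clusters were named from fixed markers. Scrublet calls (10 to 33 cells per library) were kept, and left out in an alternative.

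For each cell type, the UMIs of a library were added up and tested with edgeR's quasi-likelihood test (TMM, filterByExpr, sex and genotype as terms, Benjamini-Hochberg over all genes, threshold 0.05), with DESeq2 as an alternative. The scripts were tested on simulated data. Ratios of 2 libraries carry exact conditional binomial 95% intervals, levels exact Poisson ones and shares exact binomial ones, all for counting error only. The depth was 1926857 to 2294296 UMIs per library. Each library pooled mice and no group had a replicate pool, so p-values measure neither the spread between mice nor that between replicate pools. The 1 residual degree of freedom is the difference between the sexes in the genotype effect, and the fit also borrows dispersion across genes. A true difference of that kind would count as error. The named genes are all 10 genes, the genes of the other lists that passed a test and the 2 most abundant of each list, and the 5 genes most like the set, except that 2 genes under this rule are not reported here. *Tgfbr1*, *Cebpa*, *Cebpb*, *Il34*, *Cx3cl1*, *Selp* and *Med12l* were named after their values were seen. The members and lists were chosen with earlier results of these data known, and macrophage-like cells were defined after the data were seen.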

Additional observations from a re-analysis of the deposited data

Results flagged for a closer look

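Barcodes with under 200 genes were kept out of the comparisons, and some of the 10 genes differed there between the male libraries. In CPM (UMIs of a gene per 1000000 UMIs of the same barcodes), *Siglech* was higher in male Tg2576 than in male wild-type by 1.64 on the log2 scale (82 against 26 UMIs), *Cx3cr1* by 0.93 (221 against 114) and *Csf1r* by 0.50 (102 against 71). Summed over the 10 genes the log2 ratio was 0.67 (622 against 386 UMIs). In male microglia *Cx3cr1* had the opposite sign, with a log2 ratio of -0.11. Among barcodes with over 20% mitochondrial UMIs, *Cx3cr1* gave a log2 ratio of 2.75 between the male libraries, on 13 and 4 UMIs. These values compare 1 library with 1 library and were not tested over mice.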

How the results depend on the processing

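No paired analysis was possible because each group is 1 library and the groups share no replicate number but 1. The female median log2 ratio over the 10 genes (0.11) was 0.0451 with TMM factors and -0.0399 in cytokine-high microglia alone, where *Csf1r* gave -0.0898 and *Selplg* -0.0063, and *Gpr34* in male cytokine-low microglia gave -0.0701. The male median (0.16) was 0.0867 with at most 5% mitochondrial UMIs per cell. Over 12 settings, the main one among them, the female median was above 0 in 11 and the male median in 12. The median of cytokine-high over cytokine-low (-0.45) was -0.2953 with at least 500 genes per cell. That of microglia over macrophage-like cells (1.36) was 1.6726 with no mitochondrial limit, 0.1578 with cells thinned to 500 UMIs and 2.931 with all cells of the cluster. These medians can include lower bounds, where macrophage-like cells had no UMI of a gene, and the floor weighs most in thinned cells. At most 5% mitochondrial UMIs left no macrophage cluster. The genotype count of 11 genes in microglia was 2 with at most 5% mitochondrial UMIs, 0 with no mitochondrial limit, 28 with at least 500 genes per cell, 36 at resolution 1, 43 with the 10 genes among the variable genes, 33 without Scrublet calls, 0 with DESeq2, 25 without TMM, 24 without the filter on low counts and 0 without the covariate. It was 0 in cytokine-high and 4 in cytokine-low microglia alone, and 4 to 9 with 1 library left out. The sex count of 311 was 41 with no mitochondrial limit, 17 with DESeq2 (adjusted p not given for 6983 genes), 61 without the covariate, 82 and 111 in cytokine-high and cytokine-low microglia alone and 34 to 130 with 1 library left out. The genotype count of 0 in macrophage-like cells was 0 to 1 with 1 library left out. Where 1 library was left out, the lone library of a group was assumed to vary like the others. The settings with the whole macrophage cluster and with each microglial cluster alone were chosen after seeing the data. The causes of these changes were not tested. Over 12 settings, *Siglech* ranged from 0.81 to 0.93 in males and 0.04 to 0.22 in females, *P2ry12* from 0.21 to 0.31 and 0.20 to 0.47, *Gpr34* from -0.07 to 0.24 and 0.02 to 0.22, and *Csf1r* from 0.10 to 0.24 and -0.09 to 0.16.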
